A study of Mus musculus with 6 samples.

Results

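The genes described here encode the enzymes, membrane proteins and proton pump of the lysosome in RAW264.7, a mouse macrophage-like cell line. They are 45 named genes out of 54532 in the deposited tables, chosen by gene name: lysosomal hydrolases and their helpers, membrane proteins, the transcription factors Tfeb and Tfe3, and the widely expressed subunits of the V-ATPase. Every name matched exactly 1 row. RNA was sequenced from 6 libraries, 3 of wild-type cells with no shRNA in their tags (control) and 3 whose tags give an ERMAP knockdown by shRNA, a short hairpin RNA. ERMAP is a membrane protein of the butyrophilin family. All 6 came from the same line grown in the same medium with serum. The treatment text names an ERMAP-shRNA lentivirus for every sample, controls included, and the labels describe no non-targeting shRNA, so an effect of transduction and one of the hairpin cannot be told apart. No source used here says whether the replicates were separate cultures, or whether the knockdown cells were 1 clone or a pool. The p-values below thus set the difference between the groups against the variation among these libraries, and that variation may be technical.

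Lysosomes are acidic compartments in which macrophages break down what they engulf and what autophagy delivers. The V-ATPase acidifies them: its V1 sector in the cytosol hydrolyses ATP, and its V0 sector in the membrane moves protons. A chloride-proton exchanger, ClC-7 with its partner Ostm1, carries the balancing charge. Hydrolases inside digest proteins, sugars and lipids, and heavily glycosylated membrane proteins such as LAMP-1 line the membrane. TFEB and TFE3 are basic helix-loop-helix factors that enter the nucleus when nutrient signalling is low and bind a short palindrome near many lysosomal genes, so that these genes can be regulated together.

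That palindrome was looked for in the RefSeq promoters of the members. The members were chosen by gene name, without their sequence. Since the palindrome is known from lysosomal genes, a share above the background was likely from the start and is given as a description. Promoters in the table span 250 bases before to 50 after the start of transcription in GRCm38.p6, the assembly behind mm10, and 37 of the 45 members have an entry. The other 8 are Npc1, Ctsb, Ctsh, Asah1, Atp6v1b2, Atp6v1c1, Atp6v1g1 and Atp6v1h. The letters searched were CACGTG (the core motif) and TCACGTGA (the extended motif, which contains the core). Each is its own reverse complement, so 1 search covers both strands. The core motif occurred in 12 of the 37 members (32.4%), against 8.09% of all 27025 genes with a promoter and 12.2% of the protein-coding genes tested here. The extended motif occurred in 8 members (21.6%), against 1.12% and 2.26%. Of the enzymes, 5 of 13 held the core motif, and of the pump genes 4 of 12. A match describes the letters of the window and does not show that a factor binds there.

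The stretches that hold the motif are shown for the members of each class in which it occurred, because they show how these promoters resemble each other. Each runs 5′ to 3′ on the gene's own strand, with the motif in capitals. Lamp1 has 4 copies within 73 bases before its start (chr8:13159088-13159160, plus strand), and the pump gene Atp6v0b has 2 in 48 bases (chr4:117887330-117887377, minus strand).
Lamp1: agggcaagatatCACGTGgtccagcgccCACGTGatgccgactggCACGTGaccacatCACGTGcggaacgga
Atp6v0b: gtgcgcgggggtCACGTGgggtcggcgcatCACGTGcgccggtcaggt
Mcoln1: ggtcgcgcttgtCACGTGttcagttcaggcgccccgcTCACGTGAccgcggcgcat
Gla: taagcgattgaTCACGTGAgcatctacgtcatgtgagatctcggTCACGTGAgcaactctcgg
Ctsa: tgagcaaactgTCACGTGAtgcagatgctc
Ctsd: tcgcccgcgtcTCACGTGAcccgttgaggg
Clcn7: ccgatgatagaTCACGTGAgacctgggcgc
Atp6v0d1: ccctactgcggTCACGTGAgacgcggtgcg
Atp6v0e: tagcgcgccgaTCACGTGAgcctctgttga
Atp6v1a: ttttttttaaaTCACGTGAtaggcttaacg
The Mcoln1 stretch lies at chr8:3500436-3500491 on the plus strand and that of Gla at chrX:134601182-134601244 on the minus strand. Single windows of 30 bases are shown for Ctsa (chr2:164833749-164833778, plus strand), Ctsd (chr7:142387908-142387937, minus strand), Clcn7 (chr17:25133386-25133415, plus strand), Atp6v0d1 (chr8:105566050-105566079, minus strand), Atp6v0e (chr17:26676387-26676416, plus strand) and Atp6v1a (chr16:44139373-44139402, minus strand). Ctsa, Ctsd and Clcn7 each hold a second copy in the same promoter. Ctsl and Gaa hold the core motif a single time each, 236 and 140 bases before their starts. No match was found in the promoters of Tfeb and Tfe3 themselves.

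Summed counts per library ranged from 13447021 to 16602734. Ermap had 12, 12 and 3 counts in control and 10, 21 and 14 in the libraries labelled ERMAP shRNA, so its level was not reduced there (log2 fold change 0.81, 95% interval -0.38 to 2.01, edgeR adjusted p = 0.929), and these libraries are called by their label below. Of 9 macrophage markers, 8 were expressed, led by Lyz2 and Csf1r, while Mertk had 0 counts in all 6 libraries. Of the 8, 5 had positive and 3 negative log2 fold changes. Fcgr1 was called higher (1.64, edgeR adjusted p = 0.000116), where 1.01% of all genes were. DESeq2 also called Cd14 higher (0.53, DESeq2 adjusted p = 0.0309), where 1.16% of all genes were. Summed markers of T cells, B cells, neutrophils, mast cells, fibroblasts, melanocytes and erythroid cells reached at most 0.399 CPM (a count scaled to library size, with TMM factors) in any library. Control replicate 1 stood apart: mitochondrial genes took 3.69% of its counts, against 1.71% to 2.18% in the other libraries. Its part in many of the results is given below.

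None of the lysosomal and pump genes chosen here passed the test for a difference between the groups. Of the 45 genes, 44 passed the filter on low counts, and edgeR called 0 of them higher and 0 lower (adjusted p under 0.05, n = 3 per group), where it called 1.14% of all 12491 tested genes (1.01% higher, 0.136% lower). DESeq2 also called 0 members, and 1.53% of all genes (1.16% higher, 0.361% lower). An unadjusted edgeR p under 0.05 was reached by 3 members on the higher side and 4 on the lower, against 6.76% of all genes (3.71% higher, 3.04% lower). The 3 libraries of a group lay apart from the 3 of the other in CPM for 4 members on the higher side and 7 on the lower side, against 7.74% and 6.47% of all tested genes (14.2% together). The member that was not tested is Ctsh, an aminopeptidase-type cathepsin, which had 0, 6 and 3 counts in control and 4, 6 and 3 in the libraries labelled ERMAP shRNA.

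Changes were small in either direction. Log2 fold changes of the 44 ranged from -0.35 (Atp6v1c1) to 0.40 (Ctsc), with a median of -0.04, against -0.01 for all tested genes. The 95% interval of edgeR lay within 1.5-fold either way for 38 of the 44, and within 2-fold for all 44. Over all tested genes 58.4% had an interval within 1.5-fold, which includes many genes with fewer counts. The 6 members with wider intervals were Ctsc, Ctsz, Atp6v0c, Atp6v1c1, Atp6v1f and Atp6ap2. Smaller changes can go uncalled here: in simulated data for this comparison, the test recovered 29.7% of genes changed 1.5-fold. The changed genes were drawn at random from tested genes of every level, so this is not a share for the members. The simulation held no deviation of a single library. Summed over the 45 genes, lysosomal transcripts made up 10077 ± 169 CPM in control and 10101 ± 145 CPM in the libraries labelled ERMAP shRNA (mean ± SD, n = 3). In RNA from whole cultures, fewer cells of a kind and less RNA per cell cannot be told apart.

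**Figure D1:**
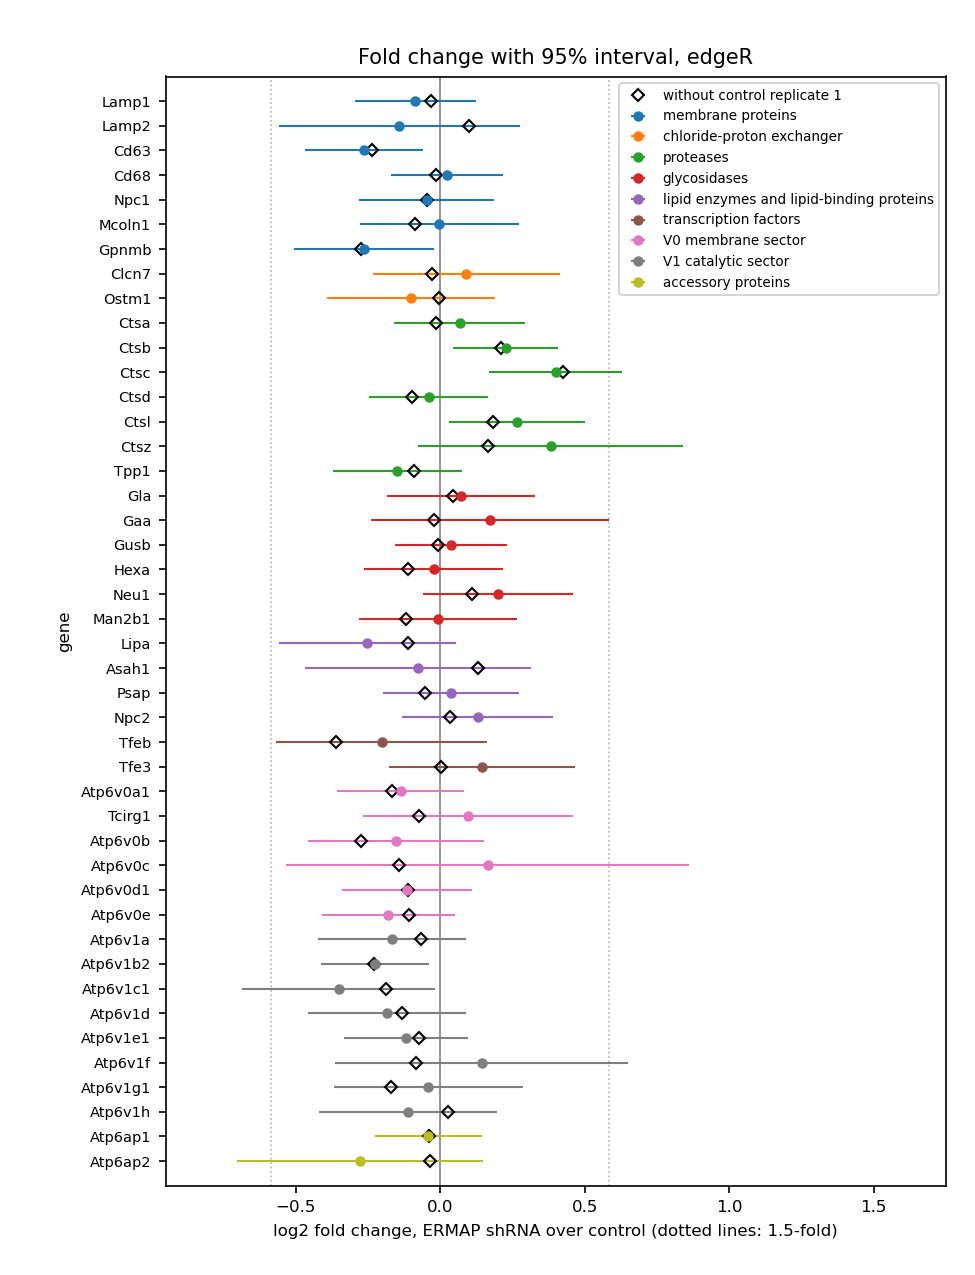
Log2 fold change (x axis, libraries labelled ERMAP shRNA over control) of each of the 44 tested genes, with its 95% interval from edgeR, coloured by role; open diamonds give the value without control replicate 1. All 44 points lie between the dotted lines at 1.5-fold and every interval lies within 2-fold; proteases reach farthest to the right, and 13 of 16 pump genes lie left of 0.

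Without control replicate 1, 7 members were called. In that fit, which called 4.86% of 12793 genes (2.67% higher, 2.19% lower), Ctsb and Ctsc were called higher and Cd63, Gpnmb, Tfeb, Atp6v0b and Atp6v1b2 lower. Offsets for GC content, with all 6 libraries, gave 1 member called, Ctsc higher, where 3.03% of all genes were called (1.87% higher, 1.17% lower). GC offsets with control replicate 1 left out, a setting chosen after the data were seen, gave 3 members called higher (Ctsb, Ctsc and Ctsz) and 5 lower (Cd63, Gpnmb, Lipa, Atp6v0b and Atp6v1b2), where 5.88% of all genes were called (3.12% higher, 2.76% lower). No other single library, left out, gave a called member. Over all alternatives the adjusted p ranged from 0.00416 to 0.816 for Ctsc, from 0.00977 to 1.0 for Ctsb and from 0.0146 to 1.0 for Cd63. It ranged from 0.0365 for Gpnmb, 0.0193 for Tfeb, 0.0229 for Atp6v0b and 0.00261 for Atp6v1b2 up to 1.0 for each. The heat map by library shows the pattern behind this: many rows differ more between control replicate 1 and the other 2 controls than between the groups.

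**Figure D2:**
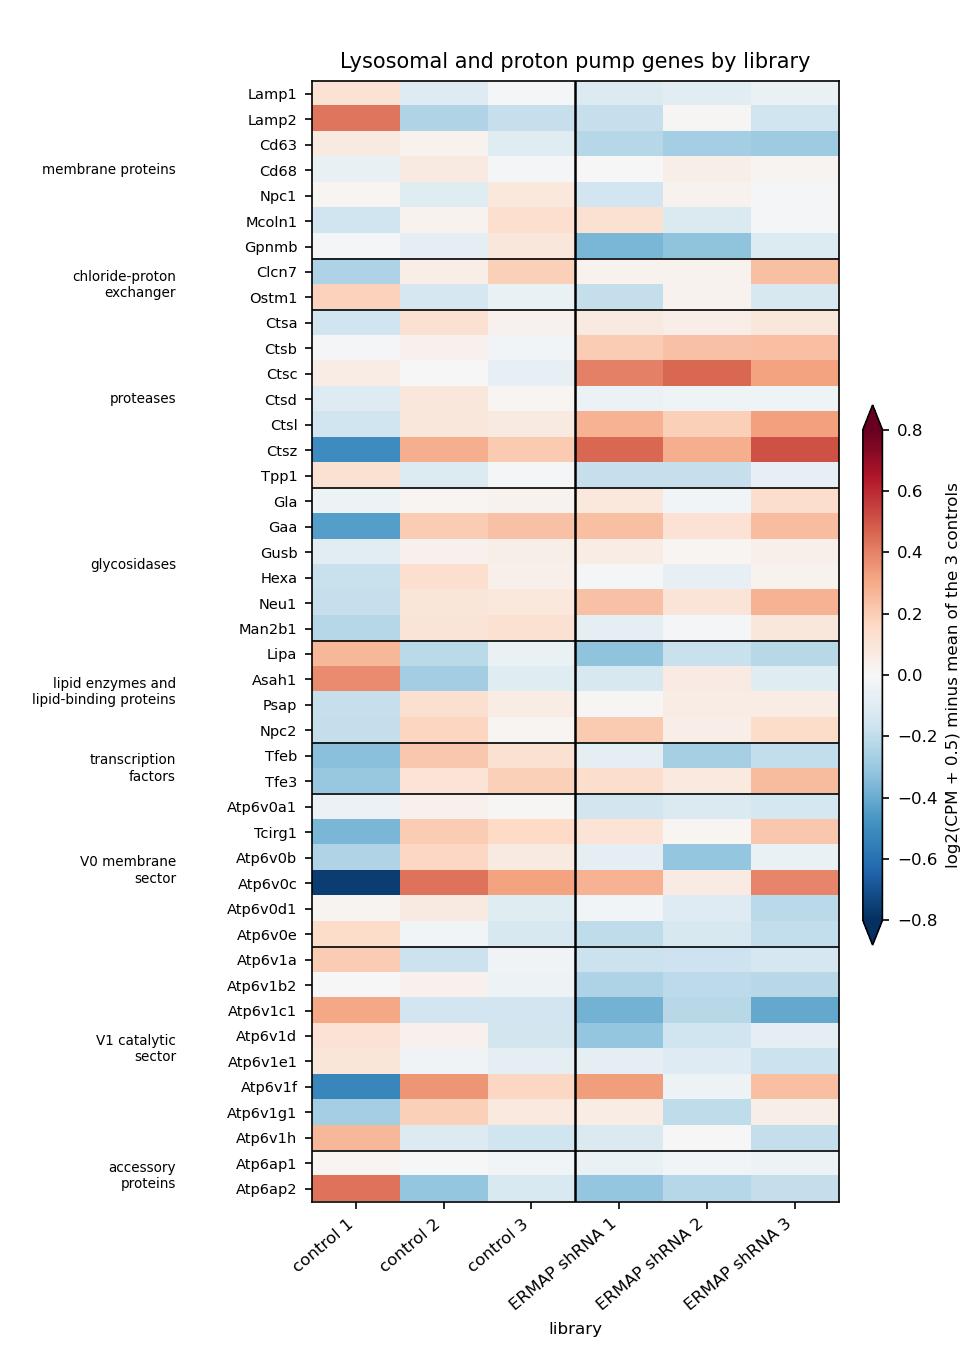
Level of each tested gene (rows, grouped by role) in each library (columns), as log2(CPM + 0.5) minus the mean of the 3 controls; red is higher, blue lower. Control replicate 1 is the highest of the 6 libraries in 15 rows and the lowest in 21, and Ctsb, Ctsc, Cd63, Gpnmb and Atp6v1b2 differ from all 3 controls in every library labelled ERMAP shRNA.

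Membrane proteins were among the most abundant members. Levels are compared between genes as FPKM, which divides a count by gene length and by library size. Cd68, a LAMP-family protein of macrophages, had the highest level of all members (394 ± 19.5 FPKM in control and 401 ± 7.97 in the libraries labelled ERMAP shRNA, mean ± SD, n = 3). Lamp1, a main glycoprotein of the lysosomal membrane, came next at 329 ± 24.3 and 311 ± 6.42 FPKM. Lamp2, its relative with a role in autophagy, was far lower at 29.2 ± 7.84 and 26.6 ± 1.99 FPKM. Npc1, which exports cholesterol, and Mcoln1, a calcium channel of the lysosome, had between 5.33 and 6.60 FPKM in every library.

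Cd63 (chr10:128900989-128912822, plus strand, mm10), a tetraspanin of late endosomes, was lower in each library labelled ERMAP shRNA. It had 203, 197 and 181 CPM in control and 166, 160.2 and 159 CPM in the labelled group. The groups did not overlap, and the log2 fold change was -0.26 (95% interval -0.47 to -0.06, edgeR adjusted p = 0.443). It was -0.24 and called once control replicate 1 was left out (edgeR adjusted p = 0.0371). A processed copy, Cd63-ps, had 1379 counts over the 6 libraries beside 15973 for Cd63, and the split of reads between them is uncertain.

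Gpnmb (chr6:49036546-49070929, plus strand), a transmembrane glycoprotein that macrophages make under lysosomal stress, showed a difference of the same size. Its libraries had 181, 172 and 194 CPM in control and 141, 145 and 169 CPM in the group labelled ERMAP shRNA. The highest labelled library lay just under the lowest control. Its log2 fold change was -0.26 (95% interval -0.51 to -0.02, edgeR adjusted p = 0.644), and -0.28 without control replicate 1 (adjusted p = 0.0423). The other 5 membrane proteins had log2 fold changes between -0.14 (Lamp2) and 0.02 (Cd68), and their groups overlapped.

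The exchanger genes Clcn7 and Ostm1 were low in both groups, and the groups overlapped. Clcn7 had 33.3, 41.1 and 45.4 CPM in control and 40.3, 40.5 and 46.8 CPM in the libraries labelled ERMAP shRNA (log2 fold change 0.09, 95% interval -0.23 to 0.41). Ostm1 had 43.9, 35.0 and 37.2 CPM against 33.7, 39.3 and 35.2 CPM (-0.10, 95% interval -0.39 to 0.19). Control replicate 1 was the lowest of the 6 for Clcn7 and the highest for Ostm1. Without it the log2 fold changes were -0.028 for Clcn7 and -0.005 for Ostm1.

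Proteases held the members with the largest positive values, although none was called over all 6 libraries. Ctsc (chr7:88278085-88310888, plus strand) encodes cathepsin C, a dipeptidyl peptidase that activates serine proteases of immune cells. It had 36.6, 35.2 and 33.4 CPM in control and 46.4, 48.4 and 44.0 CPM in the libraries labelled ERMAP shRNA. Each labelled library lay above each control, control replicate 1 did not stand apart, for a log2 fold change of 0.40 (edgeR adjusted p = 0.193, 95% interval 0.17 to 0.63). DESeq2 gave an adjusted p of 0.0913. It was called without control replicate 1 (0.43, edgeR adjusted p = 0.00416) and with GC offsets (0.43, edgeR adjusted p = 0.0324).

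Ctsb (chr14:63122462-63145923, plus strand), a cysteine cathepsin and the member with the most reads, had 1109, 1153 and 1109 CPM in control and 1293, 1323 and 1329 CPM in the group labelled ERMAP shRNA. These groups lay apart by more than their spread, with a log2 fold change of 0.23 (95% interval 0.05 to 0.41, edgeR adjusted p = 0.489). Leaving out control replicate 1 gave 0.21 and a call (adjusted p = 0.04), whereas GC offsets gave 0.17 and none (adjusted p = 0.329). Of its exon bases in GENCODE vM21, 12.8% overlap Fdft1 on the other strand, and whether the counting used strand is not given in the sources used here.

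Ctsl, a close relative with broad endopeptidase activity, had 122, 145 and 143 CPM in control and 166, 156 and 172 CPM in the libraries labelled ERMAP shRNA. The groups did not overlap (log2 fold change 0.27, 95% interval 0.03 to 0.50, edgeR adjusted p = 0.599), and the value was 0.18 without control replicate 1. Of the exon bases of Ctsl, 26.8% overlap another gene on the other strand and 6.1% one on the same strand. Ctsz, a carboxypeptidase, was the most abundant protease per length at 258 ± 71.5 FPKM in control and 338 ± 26.7 in the labelled group. Its CPM were 258, 447 and 422 in control and 503, 446 and 520.3 in the labelled group, so the groups overlapped. The low control replicate 1 made much of that difference: the log2 fold change was 0.38 with it and 0.17 without it.

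The remaining tested proteases had log2 fold changes between -0.15 (Tpp1) and 0.07 (Ctsa). Tpp1, a tripeptidyl peptidase, had 218, 186 and 199.7 CPM in control and 177, 177 and 192 CPM in the libraries labelled ERMAP shRNA (log2 fold change -0.15, edgeR adjusted p = 0.929). Ctsd, the main aspartic protease, had 360.2 ± 24.7 and 350.2 ± 1.63 CPM, and Ctsa, which also shields the sialidase Neu1, had 696 ± 68.3 and 729 ± 8.83 CPM (mean ± SD, n = 3). The groups overlapped in these 3. Of the exon bases of Ctsd, 34.4% overlap Gm49369 on the same strand, a gene with 0 counts in all libraries. For Ctsa, 17.4% overlap genes on the other strand. How reads shared with such genes were counted is not given, so both levels are uncertain to that extent.

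**Figure D3:**
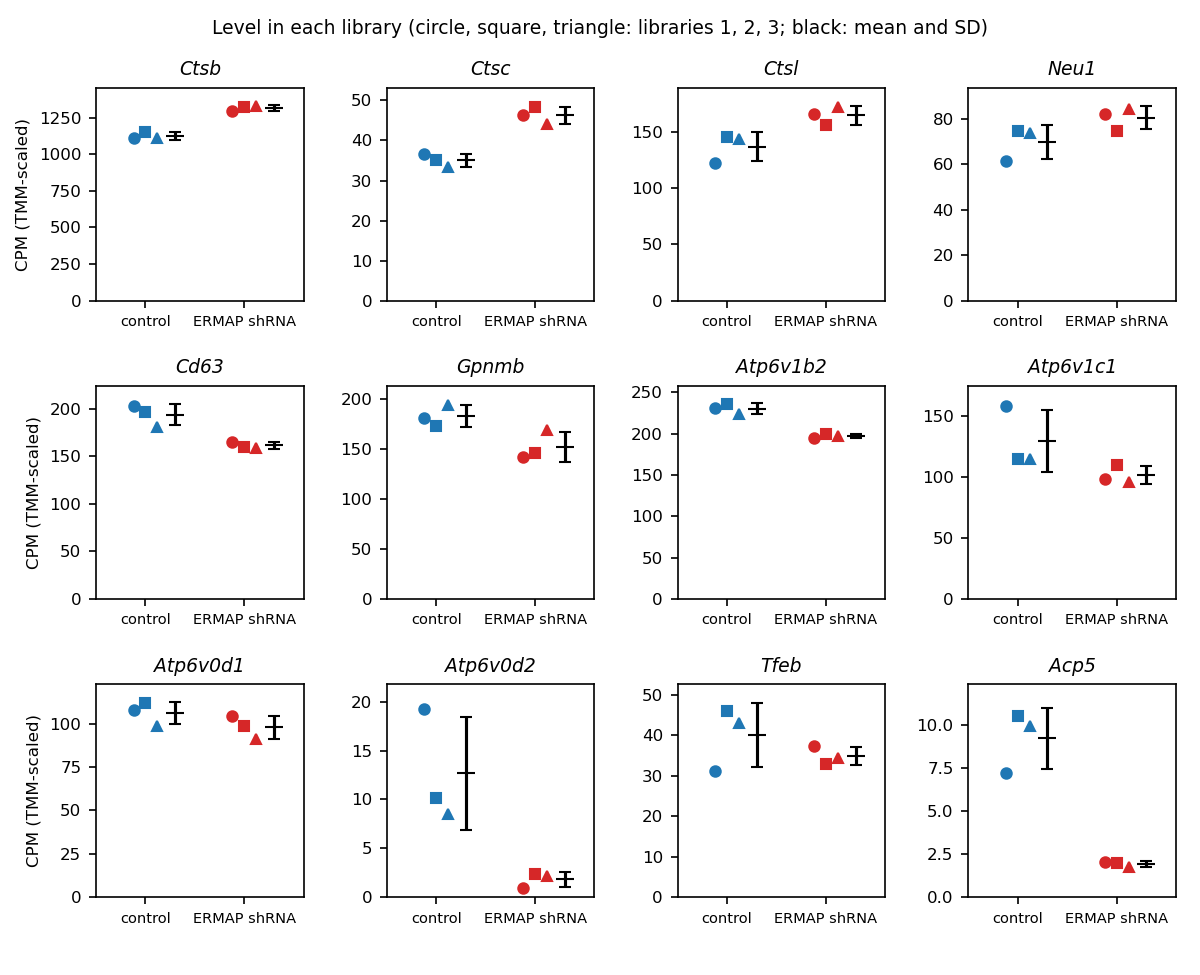
CPM in each library (y axes from 0) for 12 genes, with control in blue and libraries labelled ERMAP shRNA in red; black bars give mean and SD over 3 libraries. Ctsb, Ctsc, Ctsl and Neu1 lie higher and Cd63, Gpnmb, Atp6v1b2 and Atp6v1c1 lower in all 3 labelled libraries, by small amounts beside the differences of Atp6v0d2 and Acp5; Atp6v0d1 and Tfeb overlap.

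Glycosidases, which trim sugars from glycoproteins, glycolipids and glycogen, had a median log2 fold change of 0.05, and 0 of 6 were at an unadjusted p under 0.05. Without control replicate 1 the median was -0.015. Hexa, the alpha subunit of beta-hexosaminidase, was the most abundant per length at 153 ± 17.1 FPKM in control and 151 ± 4.97 in the libraries labelled ERMAP shRNA. Neu1, the lysosomal sialidase, had 61.3, 74.5 and 73.9 CPM in control and 82.0, 74.7 and 84.5 CPM in the labelled group. The lowest labelled library lay just above the highest control (log2 fold change 0.20, 95% interval -0.06 to 0.46, edgeR adjusted p = 0.894). The value for Neu1 was 0.11 without control replicate 1. Gusb, beta-glucuronidase, had 348 ± 17.05 and 357 ± 4.76 CPM, and Man2b1, an alpha-mannosidase, 140.5 ± 18.4 and 139.9 ± 8.15 CPM. The groups overlapped for Hexa, Gusb, Man2b1, Gaa (alpha-glucosidase) and Gla (alpha-galactosidase A). Gaa was low in control replicate 1 alone, at 57.7 CPM beside 85.3 to 93.3 CPM in the other 5 libraries.

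No gene of lipid breakdown was at an unadjusted edgeR p under 0.05, and the groups of all 4 overlapped. Psap, whose saposins help lipid hydrolases, was the third most abundant member per length at 307 ± 34.4 FPKM in control and 316 ± 6.70 in the libraries labelled ERMAP shRNA. Npc2, which hands cholesterol to Npc1, had 180.3, 232 and 208 CPM against 237, 214 and 227 CPM. Lipa, the acid lipase, had 520.1, 372 and 417 CPM in control and 346, 382 and 371 CPM in the labelled group. Its log2 fold change of -0.25 (95% interval -0.56 to 0.05, edgeR adjusted p = 0.873) became -0.11 without control replicate 1, its highest library. For Asah1, acid ceramidase, the value turned from -0.08 to 0.13 without that library.

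Tfeb and Tfe3 were at 6.56 and 12.1 FPKM on average over the 6 libraries and had no call over all 6 libraries. Tfeb had 31.2, 45.9 and 43.1 CPM in control and 37.4, 32.8 and 34.4 CPM in the libraries labelled ERMAP shRNA. Control replicates 2 and 3 lay above every labelled library and control replicate 1 below them all, so the groups overlapped (log2 fold change -0.20, 95% interval -0.57 to 0.16, edgeR adjusted p = 0.937). The value was -0.36 and called once control replicate 1 was left out (edgeR adjusted p = 0.0193). With GC offsets and all 6 libraries it was -0.32 (adjusted p = 0.131), and with both GC offsets and that library left out it was not called. Tfeb transcripts have the highest GC content of the members, 61.6%. Tfe3 had 85.7, 114 and 121 CPM in control and 116, 112 and 126 CPM in the labelled group (log2 fold change 0.14, 95% interval -0.18 to 0.47), and 0.00 without control replicate 1.

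The members were also split by the core motif in their promoter. The 12 with the motif had a median log2 fold change of -0.02 (range -0.18 to 0.26), and the 25 without it -0.02 (range -0.28 to 0.40). With control replicate 1 left out the medians were -0.05 and -0.07. No test was made of this.

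Most genes of the V-ATPase were slightly lower in the libraries labelled ERMAP shRNA, and none passed the test. Of the 16 pump genes, 13 had a negative log2 fold change, against 51.7% of all tested genes, and the median was -0.13. Leaving out control replicate 1, 15 of 16 were negative and the median was -0.11. With GC offsets 13 were negative, with a median of -0.14. Their groups lay apart on the lower side in 5 and on the higher side in 0, against 6.47% and 7.74% of all tested genes.

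In the V0 sector, Atp6v0b, which encodes a proteolipid of the proton-carrying ring, had the highest level per length (96.96 ± 14.2 FPKM in control and 87.4 ± 8.20 in the libraries labelled ERMAP shRNA). Its CPM were 168, 224 and 209.8 in control and 188, 161 and 192 in the labelled group. The groups overlapped because of control replicate 1, and the log2 fold change was -0.15 (edgeR adjusted p = 0.937) with it and -0.27 without it (adjusted p = 0.0314). Atp6v0e, a small membrane subunit, had 170.5, 152 and 141 CPM against 134, 141 and 134 CPM (-0.18, 95% interval -0.41 to 0.05). Atp6v0a1 and Tcirg1 encode a subunits, which form the path for protons and steer the pump to its membrane. Atp6v0a1 had 38.4, 40.8 and 40.1 CPM against 35.9, 36.7 and 36.0 CPM, a small gap between groups that did not overlap (-0.14, 95% interval -0.36 to 0.08, edgeR adjusted p = 0.937).

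Atp6v0c, which encodes the main proteolipid of the ring, was listed at the lowest level of the tested members, 3.40 ± 1.39 FPKM in control and 3.83 ± 0.453 in the libraries labelled ERMAP shRNA. Its processed copy Atp6v0c-ps2 had 13160 counts over the 6 libraries, against 1111 for Atp6v0c. The copy stood at 304 ± 105 FPKM and 319 ± 3.802 FPKM. Reads of the 2 cannot be told apart in these tables, so the level of the gene is uncertain and the low value should not be read as one of the c subunit. In CPM the gene had 6.22, 14.9 and 13.7 in control and 13.3, 11.4 and 14.4 in the labelled group, and the copy 86.4, 168 and 174 against 149.96, 147 and 151. Both were low in control replicate 1 and overlapped between the groups, with log2 fold changes of 0.16 and 0.07 that became -0.14 and -0.20 without that library.

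In the V1 sector, Atp6v1b2 (chr8:69088646-69113711, plus strand) encodes the B subunit of macrophages and many other cells, which shares the ATP sites with the A subunit. It had 231, 236 and 224 CPM in control and 194, 199 and 198 CPM in the libraries labelled ERMAP shRNA. Its groups lay apart with little spread, and control replicate 1 was not extreme (log2 fold change -0.22, 95% interval -0.41 to -0.04, edgeR adjusted p = 0.53). Without control replicate 1 it was -0.23 and called (adjusted p = 0.0345). Atp6v1a, the catalytic A subunit and its partner, had 430.2, 332 and 366 CPM against 331, 333 and 340.0 CPM. That difference of -0.17 became -0.06 without control replicate 1.

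Atp6v1c1, the C subunit that clamps the sectors together, had the largest negative value of all members. Its libraries had 158, 115 and 115 CPM in control and 98.3, 109.5 and 96.1 CPM in the group labelled ERMAP shRNA. The groups did not overlap (log2 fold change -0.35, 95% interval -0.69 to -0.02, edgeR adjusted p = 0.682), and the value was -0.19 without control replicate 1, the highest library. Atp6v1g1, a stalk subunit, had the highest level per length in this sector at 90.9 ± 14.8 and 88.6 ± 8.74 FPKM. The rotor subunit Atp6v1f had 54.1, 99.8 and 87.4 CPM against 98.6, 75.9 and 92.3 CPM, with control replicate 1 lowest and the groups overlapping. Atp6v1d, Atp6v1e1 and Atp6v1h, of the rotor, stalk and regulatory parts, had log2 fold changes of -0.18, -0.12 and -0.11. The groups of Atp6v1e1 lay apart, and those of the other 2 overlapped.

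The accessory proteins Atp6ap1 and Atp6ap2 help the pump to assemble. Atp6ap1 varied little, with 189.8, 188 and 185 CPM in control and 181, 185 and 182 CPM in the libraries labelled ERMAP shRNA (log2 fold change -0.04, 95% interval -0.23 to 0.14), and its groups lay apart by a narrow gap. Atp6ap2 had 205, 122 and 139 CPM against 122, 129 and 133 CPM. Its value of -0.28 rested on the high control replicate 1 and was -0.03 without it.

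Enzymes and pump genes were then set side by side, with 16 hydrolases (15 tested) against 16 pump genes. The median log2 fold change was 0.07 for the enzymes and -0.13 for the pump, a difference of 0.20. No p-value is given for this difference, since the members were chosen with earlier results known. Summed CPM of the enzymes was 4465 ± 194 in control and 4761 ± 85.3 in the libraries labelled ERMAP shRNA, and that of the pump 2172 ± 53.3 and 1987 ± 30.01 (mean ± SD, n = 3). For both sums the 3 control libraries and the 3 labelled libraries did not overlap. The enzyme sum ran from 4245 CPM, in control replicate 1, to 4614 CPM in control and from 4703 to 4859 CPM in the labelled group. Ctsb and Ctsa gave the largest parts of the enzyme sum. Its rise lay mostly in Ctsb, with means of 1124 and 1315 CPM, and Ctsz, with 376 and 490 CPM. For Ctsz, control replicate 1 was low, at 258 CPM beside 447 and 422 in the other controls. Of the 15 tested enzymes, 6 had negative log2 fold changes, the largest for Lipa (means of 437 and 367 CPM).

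Library by library, the median enzyme lay -0.11, 0.09 and 0.03 from the control mean in the controls and 0.07, 0.06 and 0.09 in the libraries labelled ERMAP shRNA, on the scale log2(CPM + 0.5). The median pump gene lay at 0.02, 0.03 and -0.04 in control and at -0.10, -0.12 and -0.14 in the labelled libraries. The pump values did not overlap between the groups, while the enzyme values did, with control replicate 2 level with the highest labelled library. Without control replicate 1, the enzyme median was -0.01 and the pump median -0.11, so the difference was 0.10. The enzyme transcripts had a median GC content of 52.9% and the pump transcripts 49.0%. With GC offsets the medians were -0.01 and -0.14.

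**Figure D4:**
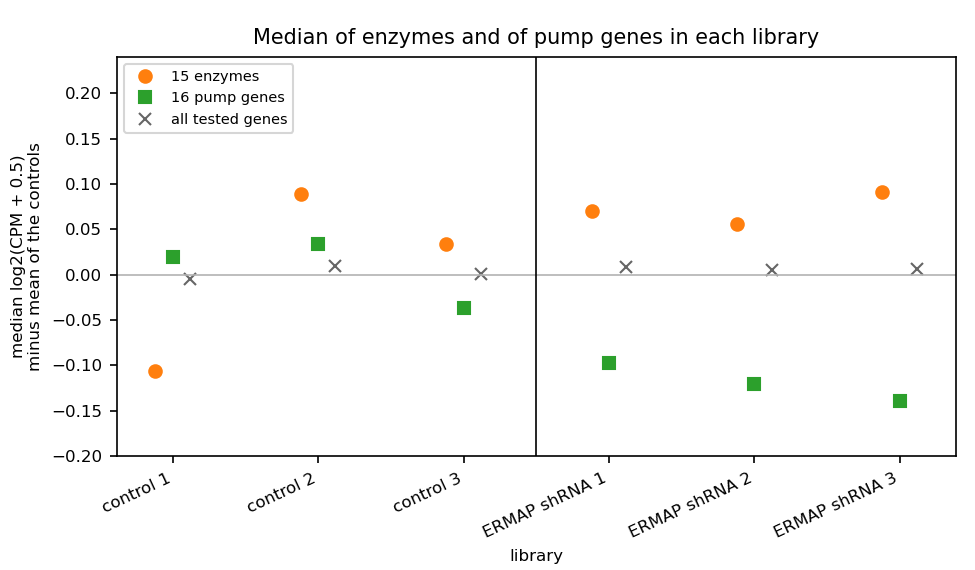
Median log2(CPM + 0.5) of 15 enzymes, 16 pump genes and all tested genes in each library, minus the mean of the controls (y axis). The pump median is -0.10 to -0.14 in the 3 libraries labelled ERMAP shRNA and -0.04 to 0.03 in control, whereas the enzyme median overlaps between the groups, at -0.11 to 0.09 in control and 0.06 to 0.09 in the labelled group.

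Of the pump subunits listed as tissue-restricted, which are not among the 45, 1 was called. That name does not describe the whole list: Atp6v0a2 and Atp6v0e2 were expressed here at 98.1 and 32.4 CPM on average over the 6 libraries. Their log2 fold changes were -0.012 and 0.125. Atp6v0d2 is the d subunit of osteoclasts and some macrophages, and its ubiquitous counterpart is the member Atp6v0d1. Atp6v0d2, known to fall from earlier results of these data, had 19.3, 10.2 and 8.52 CPM in control and 0.897, 2.40 and 2.13 CPM in the libraries labelled ERMAP shRNA (log2 fold change -2.79, SE 0.43, edgeR adjusted p = 0.0233). Its call was lost when any 1 of the 3 labelled libraries was left out (edgeR adjusted p up to 0.128, log2 fold changes -2.47 to -3.04), with the replicate block (-2.71) and in limma on log2(FPKM + 0.1) (-2.63) and log2(FPKM + 1) (-1.71), so the direction held while the adjusted p passed 0.05. Atp6v0d1 had 108, 112 and 98.9 CPM against 104, 98.5 and 91.2 CPM, groups that overlapped (log2 fold change -0.12, 95% interval -0.34 to 0.11). The d2 form made up 10.6%, 5.68% and 5.38% of the summed FPKM of both d genes in control and 0.564%, 1.58% and 1.52% in the labelled group. The shares did not overlap, and no test is given, since the fall of Atp6v0d2 was already known.

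Among the a subunits the mixture overlapped between the groups. Tcirg1, the a3 form that osteoclasts use to acidify bone, had 131, 195 and 189.7 CPM in control and 183, 172 and 197 CPM in the libraries labelled ERMAP shRNA (log2 fold change 0.10, 95% interval -0.27 to 0.46). It made up 59.4%, 67.1% and 67.3% of the FPKM of the 4 a genes in control and 67.4%, 65.0% and 69.2% in the labelled group (exact permutation test, two-sided, p = 0.5, smallest possible 0.1). Atp6v0a2 had 14.5 ± 0.518 and 14.4 ± 0.523 FPKM (mean ± SD, n = 3), above Atp6v0a1 in every library, and Atp6v0a4 had at most 0.0133 FPKM in any library. Of 9 osteoclast markers 6 were tested, and edgeR called 2 lower, Acp5 and Atp6v0d2, where 0.136% of all genes were called lower. This list was chosen with earlier results known, the fall of Atp6v0d2 among them, so the counts of calls are a description only. DESeq2 called 4 lower, with Ocstamp and Nfatc1 added (0.361% of all genes), and 5 were called, with Dcstamp, both without control replicate 1 (2.19%) and with GC offsets (1.17%). All 6 had negative values, and the summed level of the 9 was 372 to 402 CPM in control and 243 to 276 CPM in the labelled group. Nfatc1 made up most of that sum and of its fall, at 306 ± 20.8 and 212 ± 13.6 CPM (mean ± SD). It was not called by edgeR over all 6 libraries (adjusted p = 0.0527). Calcr, a defining osteoclast marker, had 0 counts in all libraries, and Oscar and Mmp9 were near 0. The part of this in the pump values was not tested.

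Other genes of the pathway came from lists with no member in common with the 45. Of 110 tested, edgeR called 0 higher and 2 lower, as did DESeq2, where edgeR called 1.01% of all genes higher and 0.136% lower. Unadjusted edgeR p-values under 0.05 were found for 2 on the higher and 6 on the lower side, against 3.71% and 3.04% of all genes. The median of the 110 was -0.05. The 33 other hydrolases among them had a median of -0.07, with 12 positive and 21 negative values. That median was -0.10 without control replicate 1. The enzymes among the 45 had a median of 0.07, so the 2 sets of hydrolases leaned in opposite directions. Summed CPM of the other hydrolases was 2829 ± 51.4 in control and 2790 ± 36.9 in the libraries labelled ERMAP shRNA (mean ± SD, n = 3). Of 33 other hydrolases, Acp5, the tartrate-resistant acid phosphatase, fell from 7.19, 10.5 and 9.90 CPM in control to 2.02, 1.997 and 1.73 CPM (log2 fold change -2.26, SE 0.22, edgeR adjusted p = 0.00168), and it was called whichever library was left out. Atp6v0d2 was the other call, among 4 tested subunits of the list called tissue-restricted. These 2 genes are the same as the 2 osteoclast markers called above, and the lists were chosen with earlier results known.

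In the lists with no call, the gene with the smallest unadjusted p is given for each. Igf2r, a mannose 6-phosphate receptor that brings new hydrolases to the lysosome, had 199.99, 193 and 219 CPM in control and 158, 161 and 160.3 CPM in the libraries labelled ERMAP shRNA. Its groups lay well apart (log2 fold change -0.35, 95% interval -0.56 to -0.14, edgeR adjusted p = 0.206), and it was called without control replicate 1 (-0.37, adjusted p = 0.000896) and with GC offsets (-0.40, adjusted p = 0.0109). Over all alternatives its adjusted p ranged from 0.000385 to 0.863. Mitf, the relative of Tfeb with roles in osteoclasts and pigment cells, had 84.2, 56.8 and 66.2 CPM against 52.5, 52.4 and 52.2 CPM (-0.40, edgeR adjusted p = 0.555), and -0.24 without control replicate 1. Among 8 assembly factors of the pump the gene was Dmxl1 (-0.34, and -0.05 without control replicate 1), and among 23 autophagy genes it was Nbr1 (-0.21, edgeR adjusted p = 0.892). Their medians were -0.13 for assembly factors, 0.01 for autophagy genes, -0.12 for the Mitf and nutrient-sensing list and -0.03 for membrane and trafficking proteins.

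Control replicate 1 differed from the other controls along the GC content of the members' transcripts. Atp6ap2, Lamp2 and Asah1, with 42.9%, 41.2% and 45.4% GC, were high in it, and Atp6v0c, Atp6v1f and Ctsz, with 58.1%, 54.7% and 57.3%, were low. Over the 44 members its log2 deviation from the mean of control replicates 2 and 3 ran from 0.65 (Atp6ap2) to -1.14 (Atp6v0c). It correlated with GC at Spearman's rho = -0.771 and Pearson's r = -0.787, a description across genes that share the same libraries. The fold changes of the members followed GC with it (rho = 0.444) and hardly without it (rho = -0.111).

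**Figure D5:**
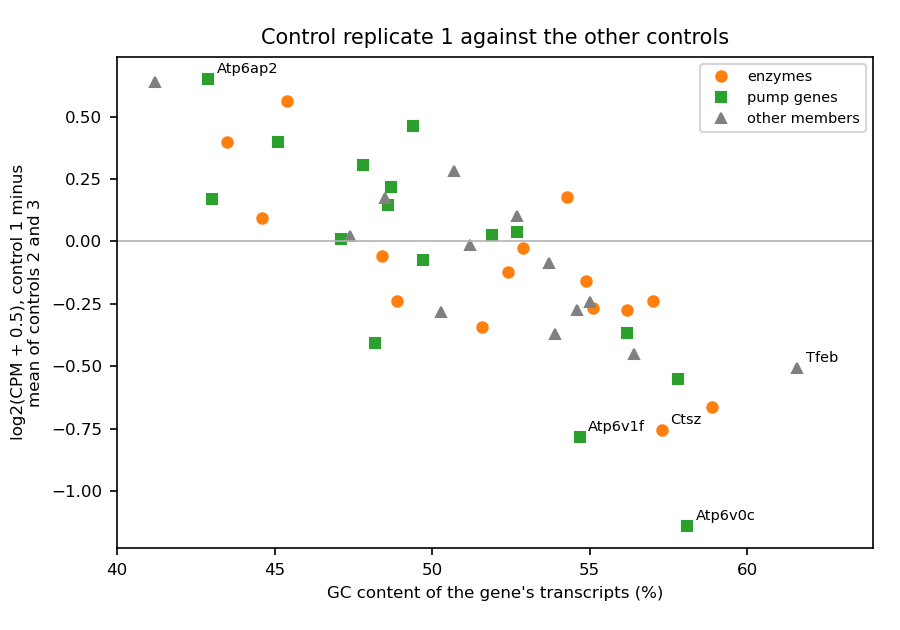
Deviation of control replicate 1 from the mean of control replicates 2 and 3 (y axis, log2(CPM + 0.5)) against the GC content of each gene's transcripts (x axis, %), for 44 genes by class. Points fall from 0.65 for Atp6ap2 to -1.14 for Atp6v0c as GC content increases (rho = -0.771).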

How the data were processed

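RNA-seq of 6 libraries was used, 3 per group. The authors deposited read counts per gene for 54532 genes, FPKM per library and mean FPKM per group; HISAT2 and the mm10 build are named, per the submitters' processing notes. No source used here gives the counting program, strand setting, annotation release or versions. Deposited FPKM equalled the count divided by gene length and 1 constant per library. Column names show each library's group and a number but match no single sample. The test on counts was edgeR's quasi-likelihood F-test (edgeR 4.0.16, R 4.3.3, with limma 3.58.1): TMM factors, filterByExpr at a minimum count of 10, robust dispersion, Benjamini-Hochberg adjustment over all 12491 tested genes, calls at an adjusted p under 0.05. SEs are the log2 fold change divided by the root of F. In simulated counts for this comparison (12318 genes, 200 changed), it recovered 29.7% of genes changed 1.5-fold, 78.8% changed 2-fold and 95.4% changed 4-fold, with 6.34% false calls. GC content is the mean over GENCODE vM21 transcripts. DESeq2 1.42.0, limma on log2(FPKM + 1) and log2(FPKM + 0.1), other scalings and filters, GC offsets, the replicate number as a block and each library left out in turn were alternatives. Within each group, every 2 libraries differed by more than sampling noise (chi-square per degree of freedom 3.35 to 67.2).

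Members and lists were chosen with earlier results of these data known. All 45 members are named. Values by library are given for the most abundant member and those with the largest positive and negative log2 fold change of each role, members at an unadjusted p under 0.05, Tfeb, Tfe3, and in the other lists called genes or the one with the smallest p; a few more members were added after their values were seen.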

Additional observations from a re-analysis of the deposited data

How the results depend on the processing

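Against 0 members called higher and 0 lower, GC offsets gave 1 and 0, and GC offsets with control replicate 1 left out, added after the data were seen, gave 3 and 5; leaving out 1 library gave 0 to 2 and 0 to 5, the highest without control replicate 1. The other alternatives, DESeq2, both FPKM pseudocounts, other scalings and filters and the replicate block included, called 0 members. Of the 44 members, 26 kept their sign in all 17 alternatives and 18 did not, with main log2 fold changes of at most 0.173 in size among the latter; 12 changed sign without control replicate 1. No called value changed sign. The enzyme median of 0.07 was -0.013 with GC offsets and ranged from -0.008 to 0.084 when 1 library was left out; the difference between enzymes and pump of 0.20 ranged from 0.10 to 0.24. For all genes, against 126 higher and 17 lower, DESeq2 called 58 lower, no filter on low counts 32 lower, log2(FPKM + 0.1) 9 lower, log2(FPKM + 1) with no filter 81 higher and 5 lower, the replicate block 81 and 3, GC offsets 233 and 146, GC offsets without control replicate 1 399 and 353, and leaving out 1 library 73 to 342 and 3 to 280. In the other lists, against 0 higher and 2 lower, GC offsets called 1 and 5, GC offsets without control replicate 1 called 1 and 11, each FPKM fit and the replicate block 1 lower, and leaving out 1 library gave 0 to 1 and 1 to 7. Of the osteoclast markers, 2 were called lower, 4 by DESeq2, and 5 each with GC offsets and without control replicate 1. The difference in the d2 share, -5.99 percentage points from FPKM, was -8.65 from counts, which take no account of gene length. Same-numbered libraries correlated in their deviations from the group mean at r = -0.331, -0.576 and 0.43 for numbers 1, 2 and 3. The highest value for any control and labelled library was r = 0.625, between control replicate 1 and labelled library 2. Deviations within a group sum to 0, so these values depend on each other. The numbers were not taken to pair the libraries. The cause of the other differences was not tested. Depth limits Ctsh, Ermap and Atp6v0d2 in the labelled libraries, which rest on few counts.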
